A study of Procambarus virginalis with 3 samples.

Results

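Long gene models with an expected count of 0 in hemocytes were described in the marbled crayfish (*Procambarus virginalis*), a freshwater crayfish that reproduces clonally. Gene models were selected on their length and expected count, keeping those at least 1000 bases long in every library with an expected count of 0 in hem37, hem39 and hem40, and are called silent here. Of 21773 gene models, 6076 reached this length, and 176 of these were silent, which is 2.90% of the long models. The other 5900 long models had a count in at least 1 library. Among models of any length, 1400 (6.43%) were silent. These counts follow from the selection rule and are descriptions of the deposited estimates. As background, hemocytes are the circulating blood cells of crustaceans. In crayfish they take up microbes, clot the hemolymph and release the enzymes of melanization. A differentiated cell type transcribes only part of the genes in a genome.

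The data are 3 RNA-seq libraries, all of hemocytes. The labels describe the cells as coming from pooled wild catches of animals in lake Reilingen, and the study describes the libraries as single-end sequencing. The study calls the datasets independent, whereas the labels say pooled and give neither the number of animals per library nor their age or sex, so the spread between libraries may be biological, technical or both. There is no second tissue or condition in the files used here, so no test between groups could be made, and silence was not compared with any other tissue. The model names carry no gene symbols, so the hemocyte label was not checked against marker genes, and the functions of the silent models are not reported. Totals were 18986789 expected counts for hem37, 17367967 for hem39 and 21143354 for hem40.

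Each model name gives a prediction source and a scaffold. As background, SNAP is a gene finder that predicts genes from the genome sequence alone, exonerate aligns known transcripts (est2genome) or proteins (protein2genome) to a genome, and MAKER joins such predictions with aligned evidence. The prefix evm is that of EVidenceModeler, a program that weighs several predictions into a consensus. The labels do not explain the names, so the sources are reported as the names give them.

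The silent long models were short for long models. Their median length was 1432.5 bases, with quartiles at 1193.25 and 1887.5, against a median of 1823.5 and quartiles at 1347 and 2694 for long models with a count. At 2000 bases or more stood 38 silent models (21.6%) and 2552 models with a count (43.3%). Over all gene models, the share that was silent fell along the whole range of length. It was 13.4% under 250 bases, 7.11% from 250 to 500, 6.65% from 500 to 1000 and 4.44% from 1000 to 1500. It was 3.20% from 1500 to 2000, 1.78% from 2000 to 3000 and 1.10% at 3000 bases or more. A longer model collects more reads at the same transcript level, so length and silence are tied by counting, and how much of the trend comes from this was not tested.

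**Figure D1:**
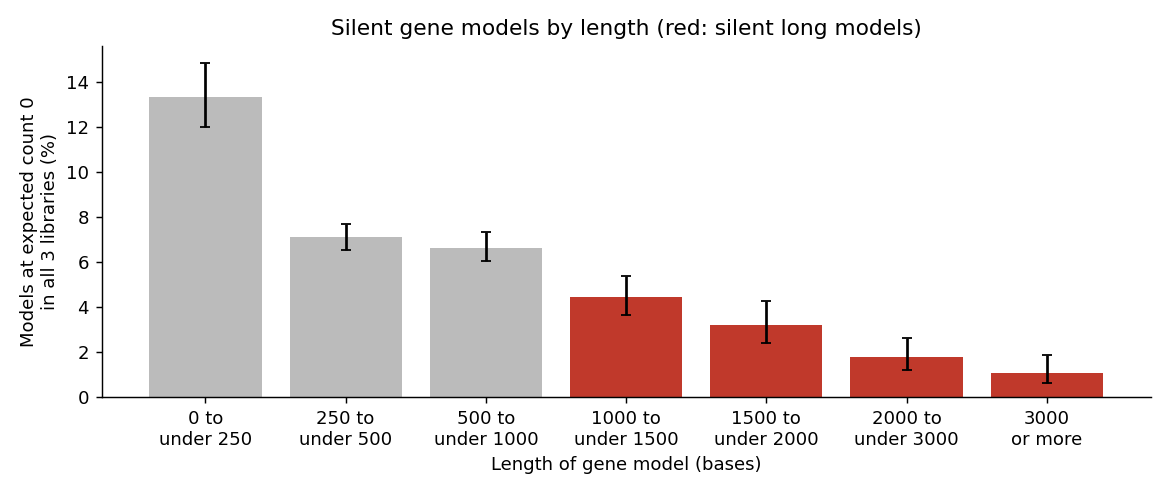
Share of gene models with an expected count of 0 in all 3 libraries, in percent, by length of the model in bases. Error bars are 95% Wilson intervals, which cover counting error only, and red bars hold the silent long models. The share is highest, 13.4%, under 250 bases and lowest, 1.10%, at 3000 bases or more.

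The length limit of the rule fell into a continuous range. The shortest silent long models were snap_masked-scaffold204294-processed-gene-0.3 with 1010 bases and maker-scaffold26163-snap-gene-0.3 with 1011 bases. Just outside stood snap-scaffold264381-processed-gene-0.5 with 999 bases and maker-scaffold16834-snap-gene-0.0 with 996 bases, both also at an expected count of 0 in every library. From 1000 to 1099 bases there were 25 silent models, and from 900 to 999 bases there were 35 among 668 models of that length. The number of all models from 1000 to 1099 bases was not counted, so these counts are not compared as shares. The limit on counts also cut through a gradual range. A further 60 long models had a summed expected count above 0 and at most 1 over the 3 libraries. The longest of them were maker-scaffold13345-exonerate_est2genome-gene-0.2 with 10590 bases and snap-scaffold174456-processed-gene-0.2 with 9507 bases, each with 1 count in hem40 and 0 in hem37 and hem39.

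The libraries differed in how many long models they left at 0. Libraries hem37 and hem39 had 325 and 323 such models, and hem40 had 249. The mean was 4.92% ± 0.713 of long models (SD, n = 3). The lowest number belonged to hem40, the library with the most counts. Exactly 2 libraries were at 0 for 121 long models, and exactly 1 library for 127. Of the 121 models, 70 had their counts in hem40, 28 in hem37 and 23 in hem39. The count in the remaining library was at most 1 for 60 of the 121 and at most 3 for 92. It was 10 or more for 12 of them, 10 of which had their counts in hem40. The highest counts of this kind, named after their values were seen, were 91.02 in hem39 for snap_masked-scaffold315641-processed-gene-0.6, 59 in hem40 for maker-scaffold80507-snap-gene-0.10 and 22.23 in hem37 for snap_masked-scaffold58172-processed-gene-0.7. Each of these models was at 0 in both other libraries. In bulk RNA, fewer cells of a type and less RNA per cell cannot be told apart.

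Prediction sources were unevenly represented. Among the silent long models, 100 (56.8%) were maker models built on snap, 33 (18.8%) carried the prefix snap_masked and 25 (14.2%) the prefix snap. There were 9 evm models (5.11%), 5 maker models from exonerate_protein2genome (2.84%) and 4 from exonerate_est2genome (2.27%). Among long models with a count, the shares were 51.8% for maker models built on snap, 9.88% for snap_masked, 13.3% for snap, 22.3% for evm, 0.136% for protein2genome and 2.58% for est2genome. Models with a snap or snap_masked prefix together made up 33.0% of silent long models and 23.2% of long models with a count.

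Counted the other way, the silent share was lowest for evm and highest for protein2genome, where few models were counted. Of 1326 long evm models, 0.679% were silent (95% Wilson interval 0.357 to 1.28). This share was 5.36% of 616 snap_masked models (3.84 to 7.43), 3.17% of 3157 maker models built on snap (2.61 to 3.84) and 3.09% of 808 snap models (2.10 to 4.53). It was 2.56% of 156 est2genome models (1.00 to 6.41). For protein2genome it was 5 of 13 models (38.5%), with an interval of 17.7 to 64.5. Such intervals cover counting error only, and models are not replicates. No test of these differences was made.

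The evm models were also long, with a median of 2089 bases among those with a count. Within long models under 2000 bases, 0.963% of evm models were silent, against 6.55% of snap_masked, 4.42% of maker models built on snap and 3.53% of snap models. At 2000 bases or more these shares were 0.427%, 2.94%, 1.48% and 2.35%. The evm models had the lowest share of these 4 sources on both sides of 2000 bases. Among est2genome models, 3.25% of 123 were silent under 2000 bases. At 2000 bases or more, 0 of 33 were silent, which is below the share of evm. Only 13 long models came from protein2genome, and 3 of the 10 under 2000 bases and 2 of the 3 at 2000 bases or more were silent.

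**Figure D2:**
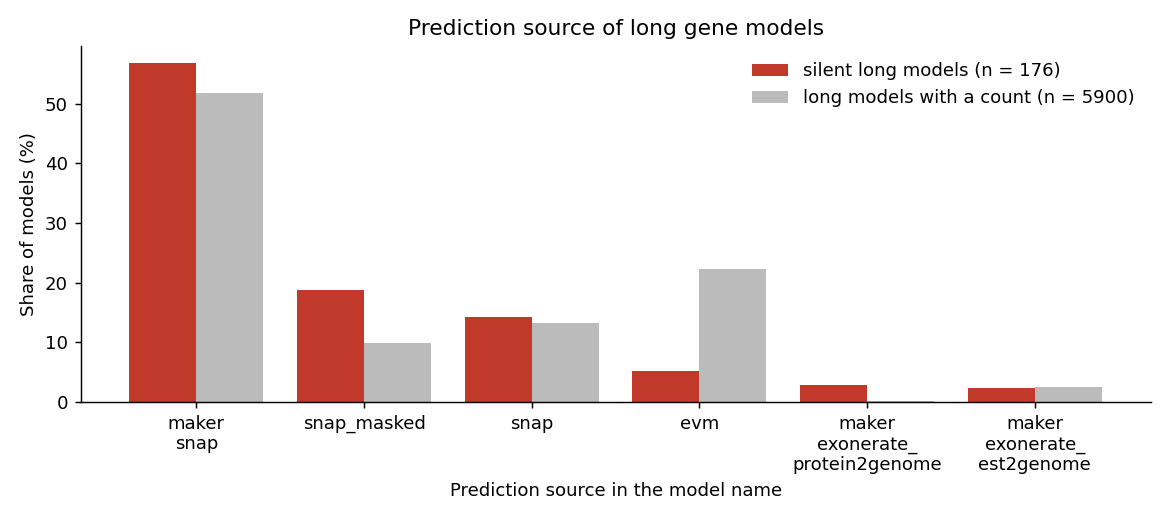
Share of models from each prediction source, in percent, for the 176 silent long models (red) and the 5900 long models with a count (grey). The largest gap is at evm, with 5.11% of silent models and 22.3% of models with a count.

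An expected count of 0 sets an upper limit on expression. The program RSEM, which the authors used, gives for each model an interval of TPM (a measure that corrects for length and scales all transcripts of a library to the same total). The level of the interval is not given in the files. Across the silent long models, the median upper bound was 0.113 TPM in hem37, 0.121 TPM in hem39 and 0.105 TPM in hem40, or 0.113 ± 0.00805 (SD, n = 3). The bound was highest in hem39, the library with the fewest counts. Taking the highest bound of the 3 libraries for each model, the median was 0.121 TPM, with quartiles at 0.0906 and 0.149. This limit was under 0.1 TPM for 61 models (34.7%) and under 0.2 TPM for 162 models (92.0%).

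For the 148 models with 1 transcript and a posterior mean count of 0, a value explained with the shared reads, the bound followed length closely. Converted back to reads with the effective length and the library's own scale, it corresponded to 2.95 to 3.04 reads, with a median of 2.98. This is close to the 3 counts that are commonly taken as the limit behind a count of 0. The limit fell as length rose. It was 0.153 TPM in hem37, 0.166 TPM in hem39 and 0.143 TPM in hem40 for the shortest model, snap_masked-scaffold204294-processed-gene-0.3.

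The lowest limits belonged to the longest models. The lowest was that of snap-scaffold32539-processed-gene-0.5, with 11313 bases, at 0.0134 TPM in hem37, 0.0142 TPM in hem39 and 0.0121 TPM in hem40. Next came snap_masked-scaffold7926-processed-gene-1.61, with 6096 bases, at 0.0249, 0.0265 and 0.0228 TPM in the same order. For snap_masked-scaffold74790-processed-gene-0.0, with 4179 bases, the bounds were 0.0358, 0.0388 and 0.0333 TPM. For maker-scaffold144864-snap-gene-0.12, with 4050 bases, they were 0.0374, 0.0401 and 0.0344 TPM. Of these 4 models, all but the second were alone on their scaffold.

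The longest of all, maker-scaffold237663-exonerate_protein2genome-gene-0.0, had a listed length of 38233.5 bases and 20 transcripts and was also alone on its scaffold. Its bounds were 0.0379 TPM in hem37, 0.0401 TPM in hem39 and 0.0350 TPM in hem40, which corresponded to 29.0, 28.6 and 28.9 reads. The bound of a model with several transcripts was therefore looser than its length alone would give. Only 5 silent long models had several transcripts, and 4 of them came from protein2genome. The model with 4 transcripts, maker-scaffold335038-exonerate_protein2genome-gene-0.4, had 1118.25 bases and a limit of 0.399 TPM, while 3 models with 2 transcripts had limits of 0.117 to 0.158 TPM. The listed length is an average over transcripts.

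**Figure D3:**
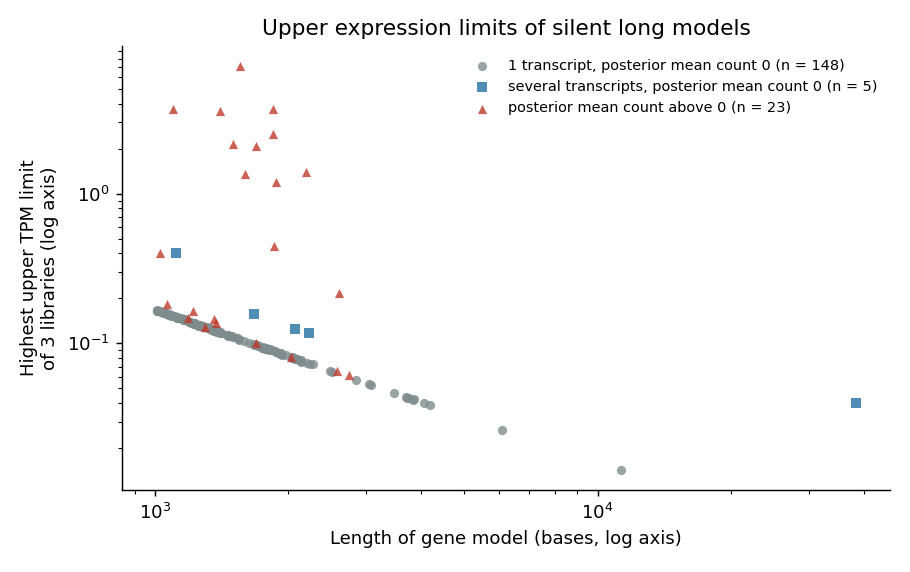
Highest upper TPM bound of 3 libraries for each of the 176 silent long models against its length in bases, both on log axes. Grey circles are 148 models with 1 transcript and a posterior mean count of 0, blue squares are 5 models with several transcripts, and red triangles are 23 models with a posterior mean count above 0. Grey circles fall on a line that ends at 0.0142 TPM, and red triangles reach 7.12 TPM.

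Not every silent long model was free of reads that could belong to it. RSEM lists, beside the expected count, a posterior mean count, which averages over possible assignments of reads that align to several models. This value was 0 in every library for 153 silent long models and above 0 in at least 1 library for 23 (13.1%). It was above 0 in all 3 libraries for 19 of the 23. The highest value over libraries was under 1 for 10 models, from 1 to under 10 for 3 models, and 10 or more for 10 models. Summed over the 176 models, posterior mean counts were 256 (hem37), 215 (hem39) and 275 (hem40). All 10 models with an upper limit of 1 TPM or more had a posterior mean count of 10 or more, and the 3 between 0.2 and 1 TPM besides maker-scaffold335038-exonerate_protein2genome-gene-0.4 had values of 1.47 to 4.55.

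The highest value belonged to snap-scaffold219379-processed-gene-0.6, with 1554 bases. Its posterior mean counts were 63.04 ± 65.54 in hem37, 30.29 ± 28.33 in hem39 and 60.05 ± 56.34 in hem40, where the errors are RSEM's posterior standard deviations. Its upper limits were 7.12, 3.21 and 5.71 TPM in the same order. The other model on its scaffold, maker-scaffold219379-exonerate_est2genome-gene-0.9 with 393 bases, was expressed at 125 TPM in hem37, 122 TPM in hem39 and 139 TPM in hem40. That model also had wide posterior standard deviations, of 829, 741 and 1080 reads around means of 1014, 795 and 1286.

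A similar set of lengths recurred on further scaffolds. The models snap-scaffold23998-processed-gene-0.1 and snap-scaffold14109-processed-gene-0.9 both had 1851 bases. The first had posterior mean counts of 34.63 (hem37), 30.25 (hem39) and 24.57 (hem40), and the second had 28, 25.87 and 31.67. Each shared its scaffold with an est2genome model of 393 bases and a snap_masked model of 225 bases, and these were also at an expected count of 0 in every library. On scaffold14109 there was also a model of 234 bases, snap-scaffold14109-processed-gene-0.7, at 11.9 TPM in hem37, 6.13 TPM in hem39 and 8.13 TPM in hem40. The length of 393 bases is that of the expressed model on scaffold219379. Whether these models share sequence was not tested.

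The remaining models of this rank were maker-scaffold64592-exonerate_est2genome-gene-0.0 and maker-scaffold3446-exonerate_est2genome-gene-0.86. The first, with 1407 bases, had a posterior mean count of 36.66 ± 28.64 reads in hem37, 28.33 ± 30.12 reads in hem39 and 35.21 ± 33.1 reads in hem40 (posterior SD). On its scaffold, snap-scaffold64592-processed-gene-0.11 was listed at 1084.59, 854.05 and 1064.63 expected counts, but at posterior means of 836, 639 and 911. The second, with 1099 bases, had posterior mean counts of 8.54, 28.65 and 14.19 in the same order of libraries. Of the 10 models with posterior mean counts of 10 or more, 1 was alone on its scaffold. Among the others, 7 had a model at 1 TPM or more in every library on the same scaffold. Such a neighbour was present for 71.6% of all 95 silent long models with another model on the scaffold. For 5 of the 10, another model at an expected count of 0 in every library lay on the scaffold. The matching share over all 95 is not given here, so no excess is read from this count. The zero of these 10 models is thus a best estimate with a wide interval, in contrast to the 148 models whose limit equals about 3 reads. A posterior standard deviation above 0 in at least 1 library was found in 38.8% of the long models with a count.

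Silent long models were spread over many scaffolds. They lay on 166 of the 12012 scaffolds named in the files. A total of 81 (46.0%, 95% Wilson interval 38.8 to 53.4) were the only model on their scaffold, against 31.2% of long models with a count (30.1 to 32.4). The median number of models on the scaffold was 2 in both sets. Scaffolds with 2 or more silent long models numbered 8 and held 18 of the 176 models (10.2%). Scaffold length was not known, so whether these scaffolds are short was not tested.

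The expression of the other models on the same scaffold does not enter the selection rule, except that a mate of 1000 bases or more at 0 would itself be selected. On the 85 scaffolds with further models there were 230 other models that were not silent long models, here called scaffold mates. Of these mates, 130 (56.5%, 95% Wilson interval 50.1 to 62.8) were expressed at 1 TPM or more in every library. Over all 21773 models this share was 70.3%, and among models on scaffolds of 2 or more models without a silent long model it was 72.2% (71.5 to 72.9). The median TPM of the mates was 2.80 (hem37), 2.38 (hem39) and 2.93 (hem40), or 2.70 ± 0.289 (SD, n = 3). For models that were neither silent long models nor mates, medians were 6.11, 5.21 and 6.48 TPM, or 5.93 ± 0.653 (SD, n = 3). The medians of the 2 sets did not overlap in the 3 libraries, but libraries measure the same models each time. Single models of the 2 sets overlapped widely. Quartiles of the mean TPM were 0.0233 and 17.9 for mates, and 1.24 and 21.6 for the other set. No test over models was made.

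Some mates were silent themselves. All silent mates were under 1000 bases long by construction. Of 164 mates under 1000 bases, 47 (28.7%) were silent, against 7.66% of models of this length on scaffolds with several models but no silent long model. The 47 include the silent mates on scaffold70472, described below, where 12 of 14 models were silent. The share was not counted without that scaffold. The share at 1 TPM or more in every library was 53.0% among the short mates and 66.6% among those other short models. Among mates of 1000 bases or more it was 65.2% of 66, against 86.4% of the other long models on scaffolds with several models. Over all long models, 82.4% were at 1 TPM or more in every library.

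The expressed share was lower among mates for 4 of 6 sources, although the numbers were small. Among maker models built on snap, 48.9% of 88 mates were at 1 TPM or more in every library, against 78.1% of models on other scaffolds with several models. For snap models the shares were 50.0% of 56 mates and 67.8%, and for evm models 70.0% of 20 mates and 85.0%. For est2genome models they were close, at 69.6% of 23 mates and 72.4%. The direction was opposite for snap_masked models, with 67.6% of 37 mates and 64.3%, and for protein2genome models, with 66.7% of 6 mates and 55.1%. The share of silent models was higher among mates for evm (20.0% and 2.01%), maker models built on snap (23.9% and 3.92%), snap (19.6% and 6.08%), snap_masked (16.2% and 6.97%) and est2genome (17.4% and 7.08%). It was 1 of 6 mates for protein2genome, against 23.7%. Silent mates on scaffold70472 are among both the maker models built on snap and the snap models.

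A silent long model nevertheless often had an expressed neighbour. Of the 95 silent long models with another model on the scaffold, 68 (71.6%, 95% Wilson interval 61.8 to 79.7) had at least 1 at 1 TPM or more in every library. Among 4058 long models with a count this share was 89.8% (88.8 to 90.7). On scaffolds of 2 models the shares were 62.5% and 77.5%, on scaffolds of 3 or 4 models 65.8% and 93.1%, and on scaffolds of 5 or more models 92.0% and 98.5%. Of the 85 scaffolds, 22 (25.9%) had no model at 1 TPM or more in every library, against 9.44% of all 4755 scaffolds with several models. Each of the 85 was selected to hold a silent long model, which cannot reach 1 TPM, and the 4755 include the 85. Part of this gap therefore follows from the selection, and how much was not tested.

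When long models were ordered by their expected count summed over the libraries, the silence of neighbours changed from class to class. The share of other models on the scaffold at 0 was 32.0% of 294 pairs for the silent long models, where a pair of silent long models counts both ways. It was 23.6% for long models with a sum over 0 to 3, 10.5% for over 3 to 10 and 5.39% for over 10 to 100. It was 4.81% for over 100 to 1000 and 3.34% for over 1000. Models alone on their scaffold made up 46.0%, 37.5%, 39.5%, 36.2%, 31.9% and 29.8% of these classes in the same order. The share of evm models was 5.11%, 8.59%, 10.1%, 10.1%, 15.4% and 27.5%. The share with an expressed neighbour was 71.6%, 66.3%, 70.5%, 77.2%, 90.3% and 92.2%. In neighbour silence over all scaffolds, the silent long models stood at the end of a gradient over weakly detected models. The class of over 0 to 3 counts, at 23.6%, was next to them. Without scaffold70472, described below and left out after seeing the data, the share for silent long models was 23.9%. No scaffold was left out of the class of over 0 to 3 counts, so its 23.6% cannot be set directly against this value. In the share with an expressed neighbour over all scaffolds, they lay between the classes of over 3 to 10 and over 10 to 100 counts. On scaffolds of 2 models, their 62.5% lay above the 3 lowest classes with a count (53.1%, 47.1% and 57.7%). On scaffolds of 3 or 4 models, 65.8% lay within the range of these classes (67.9%, 64.7% and 81.0%). With 5 or more models, 92.0% also did (85.0%, 92.6% and 97.5%).

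**Figure D4:**
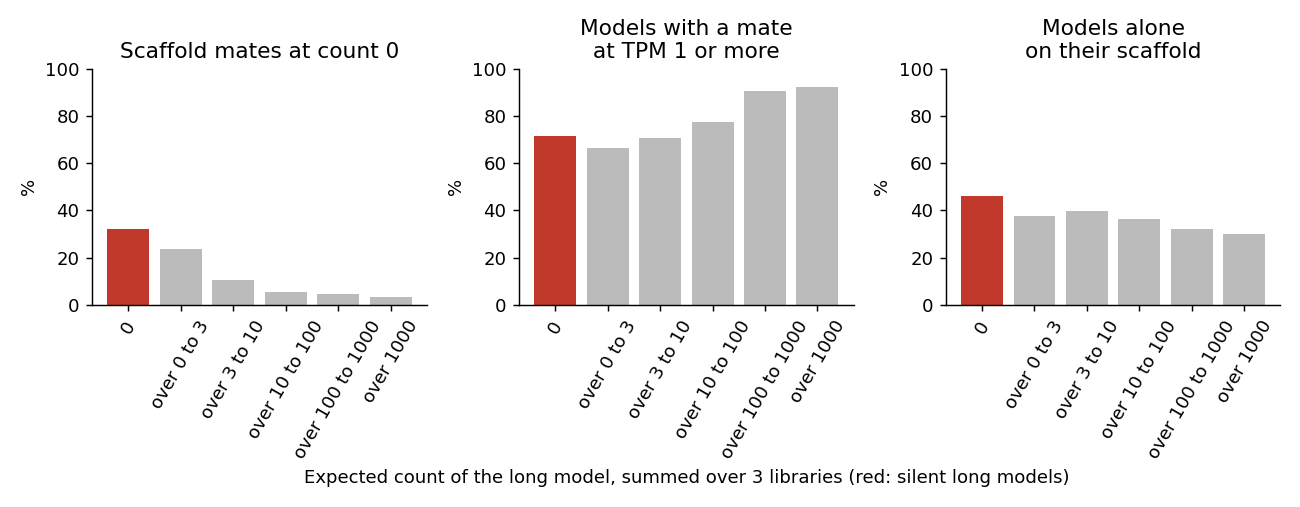
Long gene models in classes of their expected count summed over 3 libraries, with the 176 silent models in red. Panels give, in percent, the share of other models on the scaffold at a count of 0, the share of models with another model at 1 TPM or more in every library, and the share alone on the scaffold. The first is 32.0% for silent models and 3.34% for models with over 1000 counts.

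Part of the shared silence came from a single scaffold. The scaffold70472 held 14 models, of which 12 were silent, among them 3 silent long models. These were maker-scaffold70472-snap-gene-0.1 with 1452 bases, maker-scaffold70472-snap-gene-0.5 with 1818 bases and maker-scaffold70472-snap-gene-0.6 with 1383 bases. The remaining 2 models of the scaffold were maker-scaffold70472-snap-gene-0.10, with counts of 1 (hem37), 0 (hem39) and 1 (hem40), and snap-scaffold70472-processed-gene-0.11. The model snap-scaffold70472-processed-gene-0.11 was expressed at 10.1 TPM in hem37, 8.18 TPM in hem39 and 13.8 TPM in hem40. Without scaffold70472, a choice made after seeing the data, 23.9% of 255 pairs had a silent neighbour. With each mate counted a single time, 47 of 230 mates (20.4%) were silent. This count also leaves out the silent long models themselves, which the pairs include, so the 2 shares differ in both respects.

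On scaffold38040 all 4 models were silent. Its 3 silent long models were maker-scaffold38040-snap-gene-0.29 with 1810 bases, maker-scaffold38040-snap-gene-0.30 with 1675 bases and snap_masked-scaffold38040-processed-gene-0.19 with 1323 bases, with highest limits of 0.0908, 0.0986 and 0.127 TPM. In total, 7 of the 85 scaffolds with several models were silent throughout. In the whole annotation there were 43 such scaffolds among 4755 with several models. The 85 were selected to hold a silent long model, which favours silence throughout. The other 6 shared scaffolds held 2 silent long models each. Of these, scaffold141053, scaffold24342 and scaffold48825 had no model at 1 TPM or more in every library, while scaffold14291 had 1, scaffold15470 had 2 and scaffold13011 had 5. The last of these is given in full as the first by name among equals. The models maker-scaffold13011-snap-gene-0.0 (1537 bases) and maker-scaffold13011-snap-gene-1.24 (2079 bases) were silent, while the other 5 models were at 1 TPM or more in every library. The model with the highest mean among these, evm-scaffold13011-processed-gene-2.25, had 33.8 TPM in hem37, 28.7 TPM in hem39 and 43.1 TPM in hem40.

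**Figure D5:**
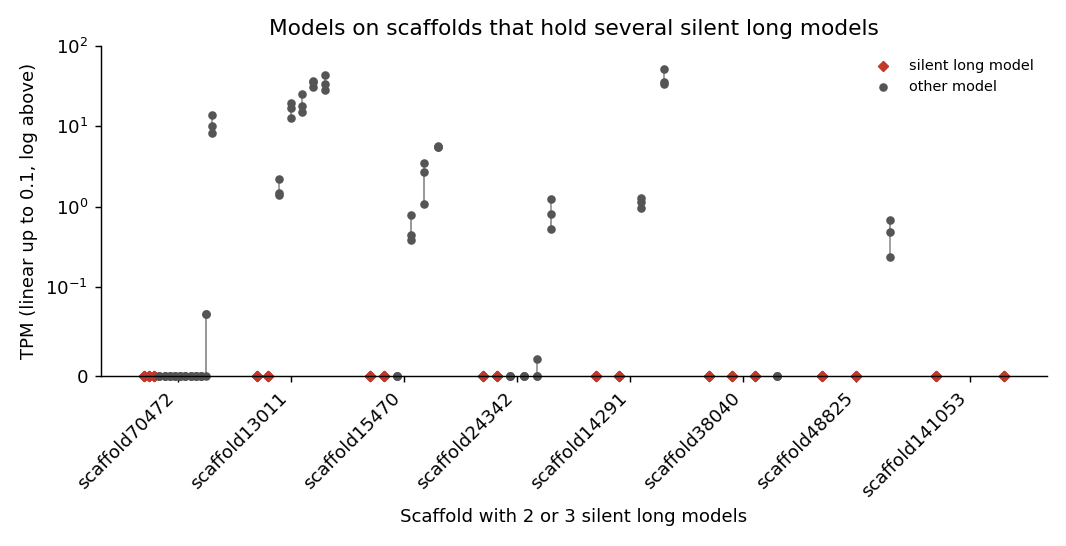
TPM of every model on the 8 scaffolds that hold 2 or 3 silent long models, on an axis that is linear up to 0.1 TPM and logarithmic above. Each model has 3 points, 1 per library, joined by a line, with silent long models as red diamonds and other models as grey circles. On scaffold70472, 12 of 14 models lie at 0, whereas on scaffold13011 all 5 other models lie above 1 TPM.

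Silence beside strong expression was also found. The brightest neighbour of any silent long model was maker-scaffold22812-snap-gene-0.22, with 309 bases, at 2566 TPM in hem37, 2551 TPM in hem39 and 3740 TPM in hem40, or 2952 ± 682 (SD, n = 3). On the same scaffold, maker-scaffold22812-snap-gene-0.24 with 1339 bases was at 0, with upper limits of 0.115, 0.123 and 0.107 TPM. The second pair was maker-scaffold46239-snap-gene-0.3, with 1068 bases and limits of 0.147, 0.157 and 0.136 TPM, beside maker-scaffold46239-snap-gene-0.1 at 1269, 1338 and 1541 TPM. Both pairs were picked for the TPM of the neighbour, so a neighbour above the limit of the silent model follows from the choice.

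The third silent model, maker-scaffold24530-snap-gene-1.46 with 1773 bases, had limits of 0.0855 TPM in hem37, 0.0927 TPM in hem39 and 0.0813 TPM in hem40. Its brightest neighbour was maker-scaffold24530-exonerate_protein2genome-gene-1.5, at 417, 1435 and 461 TPM in the same order. That neighbour was highest in hem39, whereas the silent model is at 0 in every library by the selection rule. The fourth, snap-scaffold77651-processed-gene-0.2 with 2517 bases, had limits of 0.0603, 0.0643 and 0.0561 TPM and lay beside snap-scaffold77651-processed-gene-0.3 at 286, 259 and 396 TPM. The fifth, maker-scaffold784-snap-gene-1.19 with 2583 bases, lay beside maker-scaffold784-snap-gene-3.38 at 255, 189 and 300.2 TPM. It had posterior mean counts of 0.03 (hem37), 0.03 (hem39) and 0.04 (hem40).

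The largest scaffold with a silent long model was scaffold7926, with 16 models. There snap_masked-scaffold7926-processed-gene-1.61, the model of 6096 bases named above, was the only silent model, and 11 of the others were at 1 TPM or more in every library. The brightest of them, maker-scaffold7926-snap-gene-0.15, had 205 TPM in hem37, 206 TPM in hem39 and 193 TPM in hem40, or 201 ± 7.43 (SD, n = 3). Across all 230 mates, 11 (4.78%) had a mean of 100 TPM or more, against 6.51% of models that were neither silent long models nor mates.

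Model names also hold a number before the decimal point of the final part. Of 250 pairs of a silent long model and another model with the same scaffold and the same such number, 35.6% had a silent neighbour and 43.2% a neighbour at 1 TPM or more in every library. Of 44 pairs that shared the scaffold but not this number, 11.4% had a silent neighbour and 72.7% an expressed one. The labels do not say what the number stands for, all pairs of scaffold70472 are among the 250, and no test of this difference was made.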

How the data were processed

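Hemocyte RNA was sequenced in 3 libraries, which form 1 group. The submitters' processing notes name HISAT2 2.0.4 and RSEM 1.2.30, while annotation release, genome build and trimming are not given in the sources used here, nor are gene names. The authors deposited 1 RSEM gene table per library. The deposited expected counts and posterior mean counts are estimated reads per gene model, not normalized. The deposited TPM values come from RSEM, which the authors ran. The upper bounds of TPM and the posterior standard deviations were deposited by RSEM and handled as scores.

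Gene models with a length of at least 1000 and an expected count of 0 in all 3 libraries were selected. A model was called expressed at 1 TPM or more in every library. Scaffold mates share the scaffold in the model name. All results are descriptions without tests, because there is 1 group and the rule uses the measured values. Named models were the 5 longest, the 5 with the lowest limits, the 5 with the brightest mates, the 5 with the highest posterior mean counts, those of 3 scaffolds with the most members (the third being the first by name of 6 with 2 members each), and the nearest to each threshold. Members and lists were chosen with earlier results of these data known. Alternatives were other lengths, zero definitions, TPM thresholds, mate definitions and the omission of each library. Selection and pairing were tested on simulated data. Scripts ran under Python 3.11.15 with pandas 2.3.3, numpy 2.4.6 and scipy 1.17.1, and plots were drawn with matplotlib. Wilson intervals cover counting error over gene models only. Reads carry no molecular identifiers.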

Additional observations from a re-analysis of the deposited data

How the results depend on the processing

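Of 95 alternative values, 67 stayed within 1.5 times the number of models, the 95% interval of a share or median length, or 1 standard deviation over libraries, and 28 moved. A minimum length of 500 gave 557 silent models (4.72% of models of that length), a median length of 756 bases, a median limit of 0.256 TPM and a median mate TPM of 3.73. A minimum of 2000 gave 38 models (1.47%), 2381 bases, 0.0727 TPM, a mate TPM of 2.35 and 18.0% of pairs with a silent neighbour. These lengths change the models by construction. With expression called at 0.1 TPM, 82.1% of silent models had an expressed neighbour and 67.4% of mates were expressed, and at 5 TPM 61.1% and 39.6%. With neighbours of 1000 bases or more alone, 56.9% of silent models had an expressed neighbour, 65.2% of mates were expressed, their median was 4.71 TPM and 25.8% of pairs were silent. With the same first number the median mate TPM was 2.34. On scaffolds of 5 or more models, 92.0% had an expressed neighbour. The mean bound over libraries gave a median limit of 0.113 TPM. In alternatives chosen after seeing the data, 23.9% of pairs were silent without scaffold70472. With each mate counted a single time and silent long models left out, 20.4% of mates were silent. Leaving out 1 library gave 199 to 247 silent models, 3.27% to 4.06% of long models, a median limit of 0.113 to 0.122 TPM and a median mate TPM of 2.78 to 3.09. The most models, 247, came without hem40. No paired analysis was possible because there is 1 group of libraries. Depth limits silence to under about 3 reads per library for 148 of the 176 models, and the limits of models with shared reads or several transcripts are mostly looser.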
